A study of Mus musculus with 34 samples.

Results

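Definitive endoderm made in culture from mouse ES cells was compared with EB5, the undifferentiated line it came from, for DNA methylation at CpG islands. The comparison takes 3 of the 34 arrays of the study, chosen by their labels: endoderm replicates 1 and 2, and the only array of EB5. Per the study's methods, endoderm and mesoderm were both grown from a knock-in derivative of EB5 that reports Gsc with GFP and Sox17 with human CD25. Activin A was the inducing agent, in a monolayer without serum, and a flow sort then separated the products. Endoderm is the fraction positive for Gsc, Sox17 and ECD, and mesoderm the fraction positive for Gsc alone. The label of the EB5 array does not say whether the knock-in derivative or the original line was measured, and all 3 arrays share the EB5 background. The remaining arrays used below as references are mesoderm from EB5 (1 array), undifferentiated TT2 and J1 cells (1 array each), embryoid bodies and cells treated with retinoic acid, labelled as derivatives of TT2 (1 array each), 5 post-implantation embryos at days 8.5 to 12.5, and 8 tissues of C57Bl/6 mice at 3 months of age (16 arrays). The array labelled J1 stands apart from the other ES cell arrays. Across islands its scores correlated with the adult median by 0.958 and with EB5 by 0.793, and across probes its scanner values correlated with its deposited Z-scores by 0.113. Its values are therefore given only beside those of EB5 and TT2 and not as an ES cell level.

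CpG islands are stretches of DNA rich in the dinucleotide CG, many of them at the starts of genes, and most are free of methylation in normal tissue. The enzymes Dnmt3a and Dnmt3b methylate the bulk of the genome around implantation, while most islands are spared. Islands that are normally methylated include those of germline genes, which are silent in the body, and imprinting control regions, which carry methylation on the copy from 1 parent. In methylated DNA immunoprecipitation (mDIP), an antibody against 5-methylcytidine binds sheared, denatured DNA, and here this fraction, in Cy5, was hybridised against input DNA in Cy3. Each probe's log ratio of bound over input was turned into a Z-score over its array. An island's methylation score (IMS) averages the Z-scores of its 3 or more neighbouring probes, so that 0 is the average probe of that array. An IMS above 0.75 is called methylated here and an IMS below 0 unmethylated. A higher IMS can come from more cells with a methylated island or from more methylated sites in each cell, and these cannot be told apart.

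The antibody binds methylated cytosine, and the methylation considered here is that of CG dinucleotides. The DNA just before the start of 5 genes is therefore printed with each CG in capitals. Their islands have a probe within 100 bases of the start of the gene. Islands of Msh4, Nap1l5 and Myd88 rose in endoderm, the island of Tuba3a fell, and that of Gsc, a gene used for the sort, is shown as one that did not pass the test. The 250 bases are read on the strand of the gene (the minus strand for all 5) from RefSeq sequence of GRCm38.p6. The array files name no build, so it was not determined which probes fall in these windows.
Msh4 (chr3:153904892-153905141): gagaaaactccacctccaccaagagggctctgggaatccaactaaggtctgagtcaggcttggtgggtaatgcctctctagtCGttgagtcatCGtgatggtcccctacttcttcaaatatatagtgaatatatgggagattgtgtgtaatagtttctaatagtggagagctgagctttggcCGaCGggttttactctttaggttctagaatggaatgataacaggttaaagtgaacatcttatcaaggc
Nap1l5 (chr6:58907127-58907376): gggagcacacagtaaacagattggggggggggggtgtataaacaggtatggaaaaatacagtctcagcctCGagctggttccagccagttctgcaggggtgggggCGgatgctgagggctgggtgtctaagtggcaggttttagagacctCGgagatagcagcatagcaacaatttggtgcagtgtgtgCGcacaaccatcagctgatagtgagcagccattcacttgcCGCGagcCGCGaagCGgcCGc
Myd88 (chr9:119340019-119340268): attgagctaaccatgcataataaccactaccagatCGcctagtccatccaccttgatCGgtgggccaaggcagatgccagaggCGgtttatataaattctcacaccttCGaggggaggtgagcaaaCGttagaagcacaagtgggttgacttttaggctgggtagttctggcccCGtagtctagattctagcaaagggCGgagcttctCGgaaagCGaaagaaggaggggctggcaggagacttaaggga
Tuba3a (chr6:125286082-125286331): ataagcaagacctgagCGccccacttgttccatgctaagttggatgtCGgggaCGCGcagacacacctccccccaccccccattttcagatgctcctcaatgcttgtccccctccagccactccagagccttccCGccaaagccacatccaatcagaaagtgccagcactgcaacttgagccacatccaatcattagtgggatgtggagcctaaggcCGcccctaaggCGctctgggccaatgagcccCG
Gsc (chr12:104473237-104473486): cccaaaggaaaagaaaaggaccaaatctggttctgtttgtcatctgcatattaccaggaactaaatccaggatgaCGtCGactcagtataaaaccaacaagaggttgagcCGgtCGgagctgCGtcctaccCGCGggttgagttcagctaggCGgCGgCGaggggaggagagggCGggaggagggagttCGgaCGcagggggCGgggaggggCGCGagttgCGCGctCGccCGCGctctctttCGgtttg
The window of Gsc held 22 CG, that of Nap1l5 10, Myd88 9, Tuba3a 8 and Msh4 4. CG reads the same on both strands. Of 32851 such RefSeq windows 92.1% held at least 1 CG and the median was 6. As many CG as at Gsc were found in 14.8% of windows, and as many as at Msh4 in 62.2%.

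In endoderm, 409 of 13616 islands (3.00%) had a higher IMS than in EB5 and 151 (1.11%) a lower one, so that 4.11% were called in either direction. The call required a Benjamini-Hochberg adjusted p under 0.05 from limma and both endoderm arrays on the same side of EB5. At an unadjusted p under 0.05 there were 2085 islands. The rises lay between 0.60 and 3.05 (median 1.30) and the falls between -0.57 and -2.23 (median -1.41), against a median of -0.05 and a median standard error (SE) of 0.26 over all islands. Of the higher islands, 306 were above 0.75 on both endoderm arrays and 244 were below 0 in EB5, with 143 going from below 0 to above 0.75 on both arrays. The falls were of another kind. In EB5 124 of the 151 were above 2, and 124 were still above 0.75 on both endoderm arrays, while 25 ended below 0 on both and 1 went from above 0.75 to below 0.

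**Figure D1:**
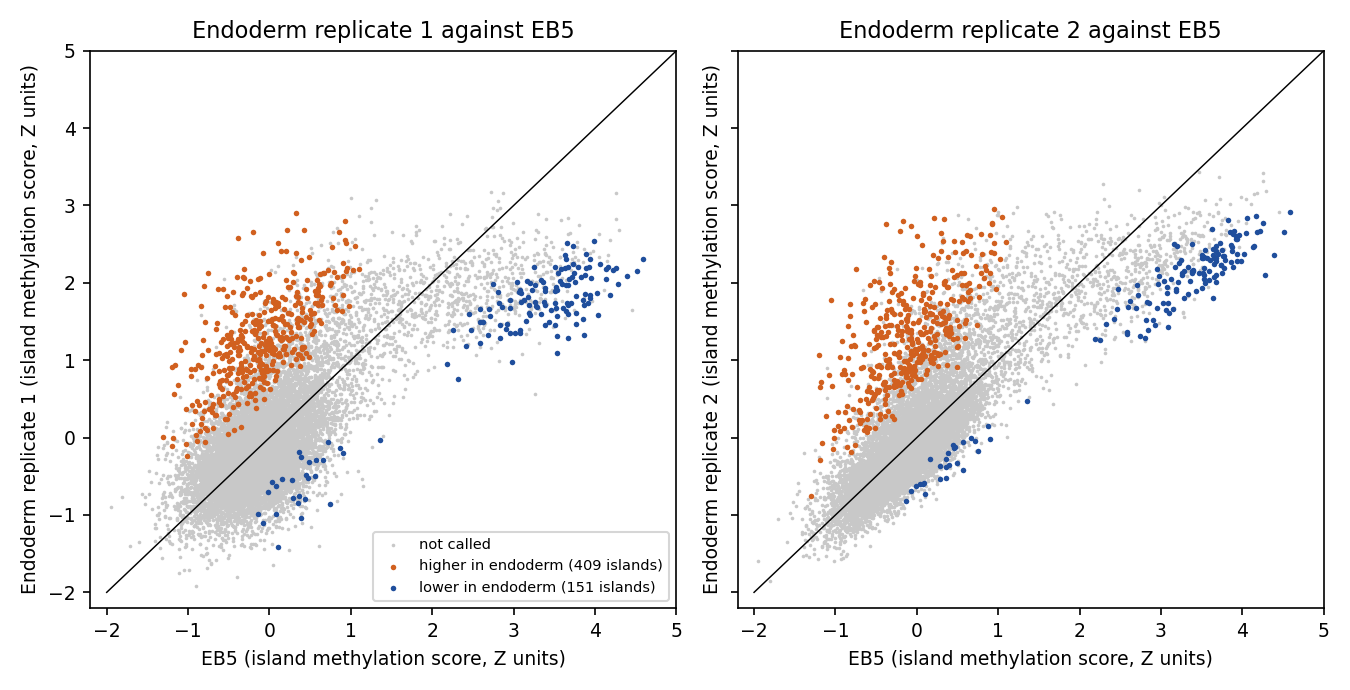
Island methylation score of each of 13616 islands in EB5 (horizontal axis, Z units) against endoderm replicate 1 (left) or replicate 2 (right), with the line of equal scores. The 409 higher islands (orange) lie mostly around 0 in EB5, and the 151 lower islands (blue) mostly above 2 in EB5.

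Facts of the arrays bear on these numbers. Endoderm replicate 1 was alone on its slide and scan day, and no other array had its version of the software that extracts spot intensities. Replicate 2 shared a slide with a pancreas array, and EB5 shared a slide with the other pancreas array. Measured within slides, as endoderm replicate 2 minus its pancreas array less EB5 minus its own, the 409 rises had a median of 1.32 and the 151 falls one of -1.29, against -0.07 over all islands. Endoderm replicate 2 and EB5 both chose these islands, so their direction there follows largely from the choice and is no check on the slide. With the slide as a fixed block, limma called 0 islands higher and 0 lower (1175 and 799 at an unadjusted p under 0.05). Without endoderm replicate 1 the calls were 213 higher and 36 lower, and without replicate 2 they were 393 and 362. The highest IMS was 3.17 and 3.43 on the endoderm arrays and 4.59 in EB5. The standard deviation of the log10 ratios was 0.269, 0.422 and 0.395 in the same order. On these 3 arrays the input stood at 5.00 to 7.30 times its background in the median and the bound signal at 2.14 to 3.14 times. Calls also depended on the scale. When ranks within each array replaced the Z-scores, all 409 and all 151 islands kept their direction, but the calls were 84 higher and 5 lower (94.4% higher, against 73.0% in the main fit). With Z-scores from the median and the median absolute deviation they were 34 and 1 (97.1% higher), and with unscaled log2 ratios 11 and 0 (410 lower at an unadjusted p under 0.05). Ranks within each array leave out the scale of the scores, but the same 3 arrays chose these islands. Their direction and their shift in rank therefore follow largely from the choice. The higher islands went from a median percentile of 48.7 of the array in EB5 to 89.1 and 89.2 in endoderm, and the lower islands from 98.9 to 94.0 and 95.9.

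Islands with the largest rises lay in genes of many kinds, mostly in the gene body. The island of Btd, which encodes the biotin-recycling enzyme biotinidase (chromosome 14, 30490675 to 30491319, 5 probes), had an IMS of 2.12 and 2.17 in endoderm and of -0.75 in EB5. It was also low in TT2 (-0.78) and had a median of -0.43 on the adult arrays. The difference of 2.90 (SE 0.45, adjusted p = 0.00145 from limma) was the largest at an island with a gene symbol. At Tor4a, a torsin-family ATPase, the scores were 1.86 and 1.78 against -1.05, a difference of 2.87 (SE 0.76, adjusted p = 0.0386). Pla2g1b, the pancreatic phospholipase A2, had 2.66 on both endoderm arrays and -0.20 in EB5, and its island lies downstream of the gene. In all 3 genes the endoderm arrays lay close together and far from EB5.

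Several islands in this group are methylated in normal tissue. The island of Gnas, an imprinted gene for the stimulatory G protein alpha subunit, lies 339 bases from a transcription start (chromosome 2, 173927575 to 173929217, 10 probes). It had an IMS of 2.08 and 2.33 in endoderm, -0.40 in EB5 and 1.83 to 2.78 over the adult arrays, a rise of 2.61 (SE 0.27, adjusted p = 9.87e-05). The zinc finger gene Zfp46 had 2.38 and 2.74 in endoderm, -0.07 in EB5 and at least 2.79 on every adult array. Mbd3, a subunit of the NuRD chromatin complex, had 2.07 and 2.13 in endoderm, -0.32 in EB5 and at least 2.22 on every adult array. App, the gene of the amyloid precursor protein, had 2.90 and 2.54 in endoderm and 0.32 in EB5, in an island 93403 bases from the start, with adult arrays at 2.32 to 3.34. At these 4 islands EB5 lay below every adult array, and endoderm lay within the adult range at Gnas and App and under it at Zfp46 and Mbd3. Rises of the same kind were measured at the splicing regulator Rbm4 (2.55), the zinc finger genes Zfp865 (2.50) and Zfp282 (2.37), and the filopodial myosin Myo10 (2.39). At Mbd3, Zfp865 and Rbm4 the TT2 array stood higher than EB5, at 1.13, 1.09 and 1.44.

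Other islands that rose are low in adult tissue or vary there. Cxcl16, a chemokine, had an island at its start with 1.96 and 1.18 in endoderm, -0.80 in EB5 and at most 0.05 on the adult arrays. The difference was 2.37 (SE 0.32, adjusted p = 0.000742). Ptger2, a receptor of prostaglandin E2, had 1.26 and 1.73 in endoderm and -0.82 in EB5, with every adult array between -1.37 and -0.32. The island of Lhx6, a LIM homeobox factor of cortical interneurons, had 1.92 and 1.97 in endoderm and -0.57 in EB5, with adult arrays from -0.44 to 2.23. Both endoderm arrays of Cxcl16 and Ptger2 were above all 16 adult arrays.

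**Figure D2:**
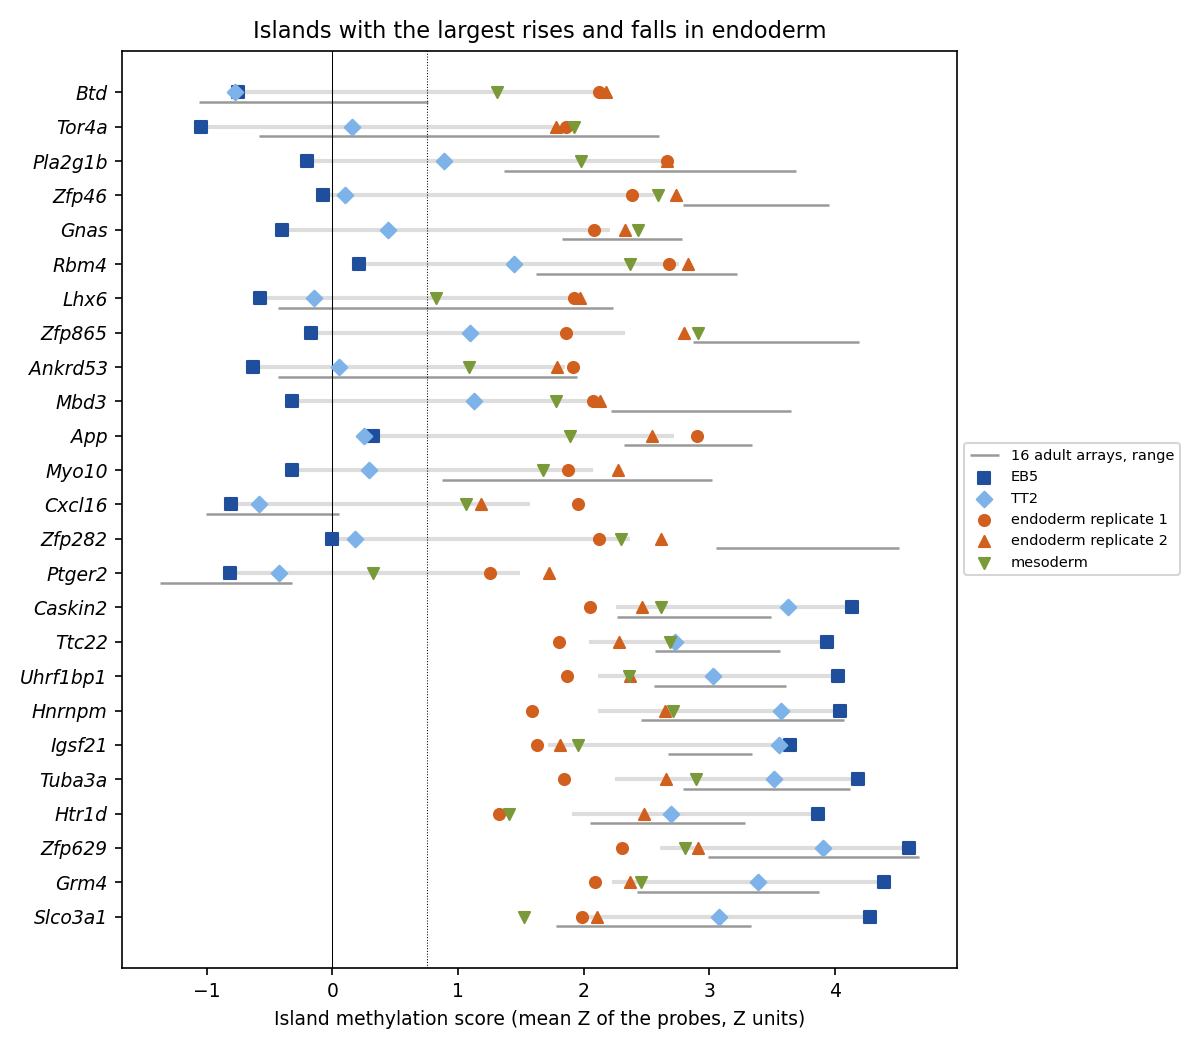
Island methylation score (Z units) of the 15 genes with the largest rise and the 10 with the largest fall, 1 point per array for EB5, TT2, endoderm and mesoderm. Pale bars join EB5 to the endoderm mean and thin lines give the range of the 16 adult arrays. All 25 were chosen among called islands, so both endoderm arrays lie on the same side of EB5 by the rule of the call.

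The shares of rises and falls differed with the state of an island in adult tissue. Both shares were largest among islands above 0.75 on all adult arrays. Of 4053 islands below 0 on all adult arrays, 90 (2.22%) were higher and 10 lower in endoderm. Their median IMS was 0.74 on both endoderm arrays, -0.52 in EB5, -0.26 in TT2, 0.51 in mesoderm, and -0.50 and -0.47 in adult tissue and embryos. Of 1004 islands above 0.75 on all adult arrays, 71 (7.07%) were higher and 118 (11.8%) lower. Over all 1004 the median was 2.21 in EB5 and 1.84 and 2.12 in endoderm, a median difference of -0.24. The median of the 71 was 0.33 in EB5 and 0.76 in TT2, but 1.90 and 2.13 in endoderm, 1.98 in mesoderm, 2.25 in embryoid bodies and 2.67 in adult tissue. The low EB5 level of the 71 follows in part from their choice as islands that were higher in endoderm. Among the other 8559 islands 248 were higher and 23 lower.

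**Figure D3:**
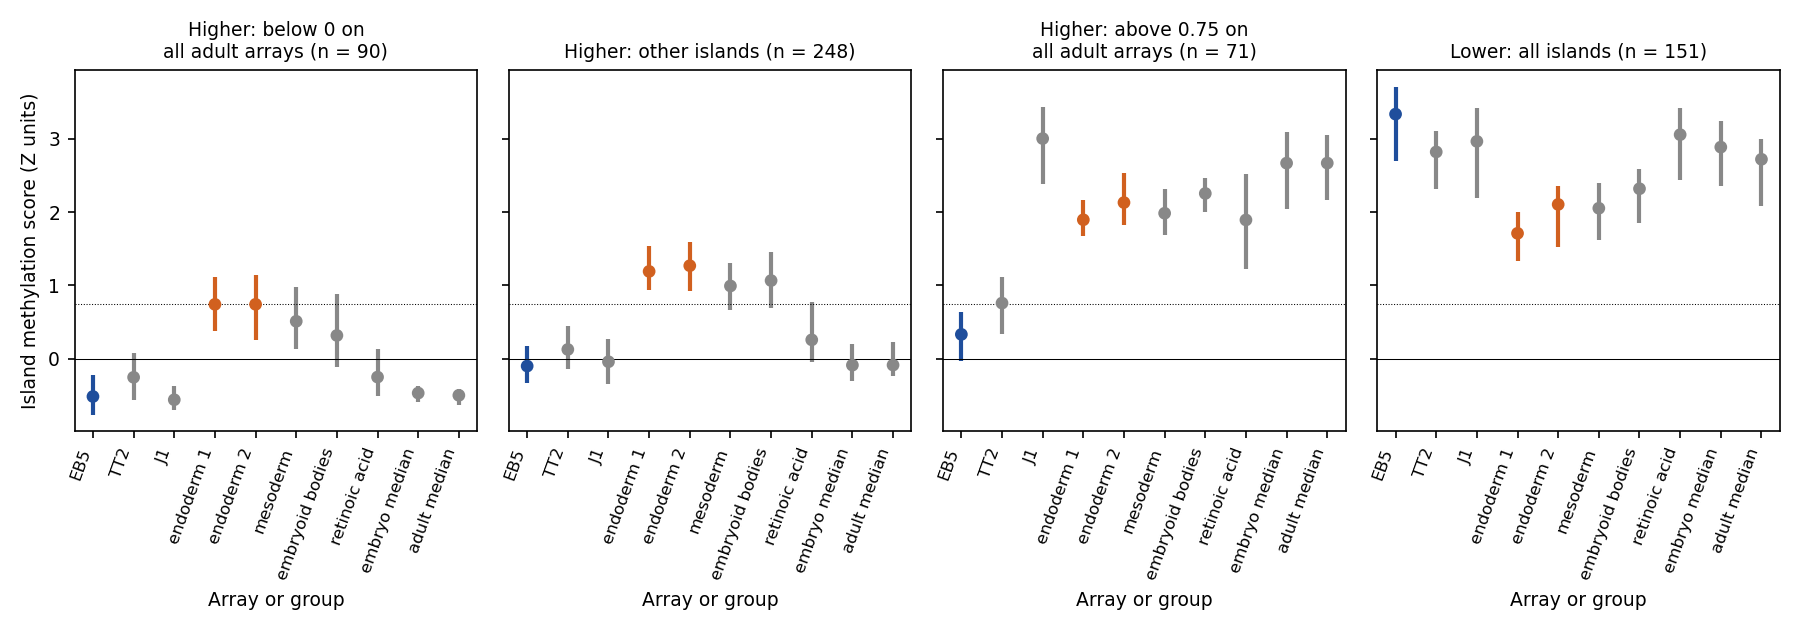
Median (point) and quartiles (bar) over islands of the island methylation score on each array or group, for the higher islands split by their state on the adult arrays and for the lower islands. Higher islands that are low in adult tissue have medians of 0.74 on both endoderm arrays, and higher islands that are methylated in adult tissue have 0.33 in EB5 and 1.90 and 2.13 in endoderm.

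Among the 90 higher islands that are low in adult tissue, 7 were chosen for naming after their values were seen. They were picked from those also below 0 on every embryo array, so their low embryo scores follow from the choice. Hivep3, a large zinc finger protein, had 1.14 and 0.81 in endoderm and -1.08 in EB5, a difference of 2.05. Khnyn had 1.85 and 1.98 against -0.33. Kcnab3, a potassium channel subunit, had 1.36 and 1.43 against -0.47. These islands had TT2 scores of -0.61, 0.04 and -0.49. Cyp27b1, the kidney enzyme that activates vitamin D, rose from -0.02 in EB5 to 1.51 and 2.08. Rxfp3, the relaxin-3 receptor, rose from -0.57 to 1.28 and 0.80. Myd88, the adaptor of Toll-like receptors whose upstream sequence is printed above, rose from -0.66 to 0.93 and 0.91, a difference of 1.58 (SE 0.28, adjusted p = 0.00364). Its mesoderm score was 0.60 and its adult median -0.67. At Cdkn2a, a tumour suppressor locus, the endoderm arrays were far apart, at 0.94 and -0.07 against -1.16.

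The falls were mostly at islands with very high scores in EB5, inside genes and far from their starts. Slco3a1, an organic anion transporter, had 1.98 and 2.11 in endoderm and 4.28 in EB5 (chromosome 7, 74377912 to 74378205, 3 probes). The fall of -2.23 (SE 0.40, adjusted p = 0.00409) was the largest, and the adult arrays lay between 1.78 and 3.33. Grm4, a metabotropic glutamate receptor, fell from 4.39 to 2.09 and 2.37 at 1 island and from 3.39 to 1.93 and 2.15 at another. Htr1d, a serotonin receptor, fell from 3.86 to 1.32 and 2.48. At none of these islands did endoderm leave the methylated range. Tuba3a, an alpha tubulin of testis whose promoter is printed above, was at 4.18 in EB5 and at 1.84 and 2.65 in endoderm, a difference of -1.93 (SE 0.34, adjusted p = 0.00341). Igsf21, a synaptic adhesion protein, went from 3.64 to 1.63 and 1.81, below its adult range of 2.67 to 3.34. The median of the 151 islands was 3.34 in EB5 and 2.82 in TT2, against 1.71 and 2.10 in endoderm, 2.05 in mesoderm and 2.32 in embryoid bodies. In retinoic acid treated cells it was 3.06, in embryos 2.89 and in adult tissue 2.72.

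EB5 scores both name the falls and enter their size, so islands were also grouped by TT2, which took no part in the contrast. The falls counted are still those called against EB5, and EB5 and TT2 correlated by 0.881 across islands. The grouping is thus no independent check on the falls. The highest IMS was 3.17 and 3.43 on the endoderm arrays and 4.59 in EB5, and the effect of this range on the shares was not tested. Of 141 islands above 3 in TT2, 55 (39.0%) were lower in endoderm and 3 higher. Of 460 between 2 and 3, 63 (13.7%) were lower, and of 857 between 0.75 and 2, 4 were lower and 61 (7.12%) higher. Below 0 in TT2, 158 of 7605 (2.08%) were higher and 18 lower. Only 27 of the falls began below 2 in EB5, and 7 of these were chosen for naming after their values were seen. Jak1, a cytokine receptor kinase, went from 0.57 to -0.50 and -0.42 at its start, Sp9, a zinc finger factor of the nervous system, from 0.36 to -0.76 and -0.52, and Rpp14, an RNase P subunit, from 0.90 to -0.20 and -0.02. The TT2 array had -0.30 at Jak1, below 0 like endoderm, 0.11 at Sp9 and 0.53 at Rpp14. The others were Map3k12/Tarbp2, Mcrip2, Atxn1l and Lactb, with falls of -0.94 to -1.18. Their TT2 scores were -0.38, 0.15, 0.23 and -0.03 in the same order.

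A smaller share of islands was called at gene starts than away from them, which is given as a description with no test. Of 8527 islands with a probe within 200 bases of a transcription start, 151 (1.77%) were higher and 31 (0.36%) lower. Between 2000 and 5000 bases 37 of 640 (5.78%) were higher and 14 (2.19%) lower, and beyond 10000 bases 83 of 1308 (6.35%) were higher and 63 (4.82%) lower. By the annotation of the array, 40 of 2464 promoter islands (1.62%) were higher, 263 of 8487 inside genes (3.10%), 26 of 428 downstream of genes (6.07%), 7 of 413 at divergent promoters and 73 of 1824 without a gene. The class inside genes also holds islands at a start, such as those of Jak1 and Myd88, so it does not stand for the gene body. Islands far from starts also had higher scores to begin with: the median in EB5 was -0.18 within 200 bases and 0.38 beyond 10000. On the X chromosome 0 of 376 islands were higher and 2 lower by limma (14 at an unadjusted p under 0.05), with a median difference of -0.12.

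**Figure D4:**
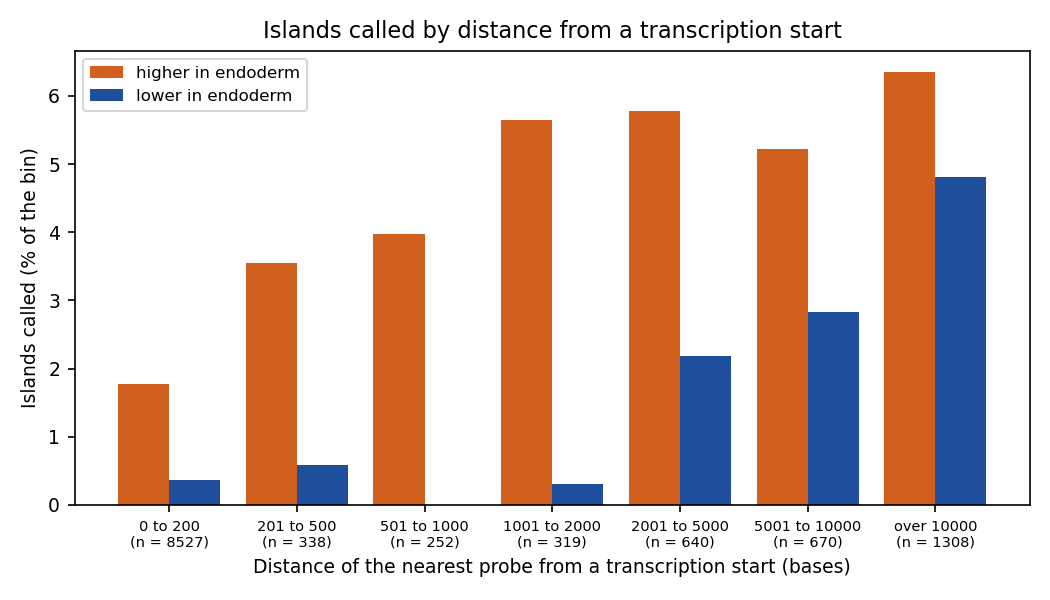
Share of islands (%) higher (orange) or lower (blue) in endoderm than in EB5 by the distance in bases of the nearest probe from a transcription start, with the number of islands per bin under each pair of bars. The share higher is 1.77% within 200 bases and 6.35% beyond 10000.

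At the genes that define the lineage the share of islands called was near that of all islands. The islands of Sox17 and Gsc, by which the cells were sorted, did not pass the test. Sox17 had 0.38 and 0.18 in endoderm against -0.23 in EB5 at -513 bases from its start, a difference of 0.51 (SE 0.41, adjusted p = 0.627), and -0.03 and -0.48 against -0.22 inside the gene. At the start of Gsc the scores were -0.17 and -0.14 against 0.24, a difference of -0.40 (SE 0.27, adjusted p = 0.534). The second island of Gsc had a difference of -0.05. Foxa2, a pioneer factor of endoderm, had -0.37 and -0.68 against -0.41 at its start. Its downstream island had 0.39 and 0.44 against -0.32, a difference of 0.73 (SE 0.21) that did not pass (adjusted p = 0.0574). Foxa1, its close relative, had 1.32 and 1.66 against 0.09 at an island 2757 bases from its start, a rise of 1.41 (SE 0.32, adjusted p = 0.0167). Foxa1 islands at the start (-0.37 and -0.58 against -0.21) and downstream (-0.38 and -0.35 against 0.17) were lower in endoderm and not called. At the risen island of Foxa1 the difference against TT2 was 0.92. DNA methylation does not report expression, so the label of the cells can be checked only at such islands. Of 9 definitive endoderm markers 8 had islands, 19 in all, of which 1 (that of Foxa1) was higher, against 3.00% of all islands. Markers of primitive streak and mesoderm had 6 islands and those of neural ectoderm 11, with 0 called in either direction by limma (0 and 1 at an unadjusted p under 0.05). Of 5 ES cell markers only Esrrb had islands here, and Pou5f1 and Nanog had none.

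Over 16 lists of genes, which hold 1103 islands, 36 were higher (3.26%) and 13 lower, against the 3.00% of all islands. Of 63 islands of 31 endoderm and gut regulators 2 were higher, those of Foxa1 and Otx2 (1.25), a homeobox factor of the anterior embryo. The median difference of this list was 0.00. Of 112 islands of mesoderm and muscle regulators 1 was higher, with a median of 0.03. None of 66 islands of Hox genes and none of 42 islands of genes encoding Polycomb complexes was called by limma, with medians of 0.12 and 0.00; at an unadjusted p under 0.05 there were 3 and 5. Among 244 islands of neural regulators 8 were higher and 1 lower. Lhx6 was followed by Phox2a (1.61), a factor of noradrenergic neurons, while Msx2 was lower (-0.80). Forkhead genes outside the other lists had 4 higher islands of 41, with 2.21 and 1.39 at Foxp4, 1.28 at Foxj1, the factor of motile cilia, and 1.05 at Foxd3.

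Genes of neurotransmission had 111 islands with a median difference of 0.19, of which 6 (5.41%) were higher and 4 lower. Over all islands 3.00% were higher and 1.11% lower. Chrne, the epsilon subunit of the muscle acetylcholine receptor, had 1.77 and 2.02 in endoderm and -0.04 in EB5, a rise of 1.94 (SE 0.33, adjusted p = 0.00277). Slc32a1, the vesicular GABA and glycine transporter, has 3 islands. At -1088 bases from the start it had 1.74 and 1.56 against 0.11, a rise of 1.54 (SE 0.40, adjusted p = 0.0343), at the start 0.59 and 0.71 against 0.14, and inside the gene 1.42 and 1.52 against 1.06. The last of these was already above 0.75 in EB5 and stood at 2.27 in TT2. The 4 falls were both islands of Grm4, that of Htr1d and that of Grik5, a kainate receptor subunit (-1.19).

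Few islands of the next lists were called, and over all islands 3.00% were higher and 1.11% lower. The share higher was 1.69% in the Nodal, activin and BMP list, 2.47% in the Wnt list and 5.26% in the FGF list. In the Nodal, activin and BMP list 1 of 59 islands was higher and 2 lower. Smad6, an inhibitory Smad of the BMP pathway, had 2.12 and 2.36 in endoderm and 0.67 in EB5 at an island 67255 bases from its start, with at least 2.75 on each adult array. Fstl1, a follistatin-like protein, fell from 0.49 to -0.31 and -0.32. With normexp background correction the difference at Fstl1 was 0.21, in the opposite direction. Of 81 Wnt islands 2 were higher, at Sfrp2 (1.28), a secreted Wnt antagonist, and at the divergent promoter of Epdr1 and Sfrp4 (0.90), and 1 was lower, at Wnt5b (-1.07). Of 38 FGF islands 2 were higher, at the ligands Fgf17 (1.50) and Fgf20 (1.24). Among 27 protocadherin islands 2 were higher, both at Pcdhga12 (1.96 and 1.72). The first of these was at 0.15 in EB5 but at 3.32 in TT2, so that against TT2 the difference was -1.22. Of 92 islands of ribosomal protein genes 1 was lower, that of Rps25, with -0.85 and -0.17 against 0.75. In TT2 it was at -1.09, and against TT2 the difference was 0.58.

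Single islands of pluripotency genes and of the methylation machinery also rose. Esrrb, a nuclear receptor of naive ES cells, had 1.93 and 1.92 in endoderm, -0.28 in EB5, -0.02 in TT2 and 1.98 to 3.04 on the adult arrays, a rise of 2.21 (SE 0.36, adjusted p = 0.00210) at an island 108826 bases from its start. Sall1 had 0.88 and 1.25 against -0.92 at a downstream island. The island at the start of Aire, some of whose probes are also named for the methylation cofactor Dnmt3l, had 1.38 and 1.04 against -0.21, a rise of 1.42 (SE 0.23, adjusted p = 0.00186). In the pluripotency list 3 of 40 islands were higher, and in the list of methylation machinery 2 of 20, that of Mbd3 and the shared one. Over all islands 3.00% were higher. The median differences of these lists were -0.02 and -0.15, against -0.05 over all islands, so the lists as a whole did not rise. Dnmt3b, a methyltransferase of the early embryo, had -0.89 and -0.83 at its start against -0.38 in EB5, a difference of -0.47 (SE 0.26, adjusted p = 0.426).

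Germline islands that are methylated in tissue were methylated in endoderm too. Of 37 islands 20 were above 0.75 on all adult arrays, and all 20 were also above it on both endoderm arrays and 18 in EB5. Their medians were 2.63 in EB5 and 1.92 and 2.16 in endoderm. Msh4, a meiotic recombination protein, was 1 of the 2 that were not methylated in EB5, with -0.66 there and 0.39 in TT2. In endoderm it had 1.41 and 1.74, a rise of 2.23 (SE 0.42, adjusted p = 0.00617). Mesoderm had 2.04 and the adult arrays 1.41 to 3.02. Tuba3a and Dpep3, a dipeptidase of testis with 3.89 in EB5 and 2.38 and 2.20 in endoderm, were lower. The other germline call, an island shared by Ndufa13 and Tssk6, rose by 1.07 from -0.95 to 0.17 and 0.08.

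Islands of imprinted genes behaved otherwise. There were 22 above 1 on every adult and embryo array, and 6 of these were above 0.75 in EB5, 5 in TT2, 8 and 10 in endoderm, 8 in mesoderm and 10 in embryoid bodies. Their median was 0.20 in EB5 and 0.22 in TT2, 0.45 and 0.43 in endoderm, and 2.59 in adult tissue. On the array labelled J1 all 22 were above 0.75, with a median of 3.06, and that array resembles adult tissue over all islands. Of the 16 islands below 0.75 in EB5, 12 stayed below it on both endoderm arrays and 3 were above it on both. These 3 were the island of Gnas, that of Nap1l5, a paternally expressed gene of the nucleosome assembly family, and that of the amino acid transporter Slc38a4. Nap1l5 had 1.76 and 2.01 in endoderm, 0.05 in EB5 and -0.08 in TT2, a rise of 1.84 (SE 0.29, adjusted p = 0.00156). Slc38a4 had 0.94 and 1.06 against 0.19, which did not pass (adjusted p = 0.323). Peg3 (-0.97 and -0.60 against -0.15), Peg10 (-0.13 and -0.36 against 0.08) and Zrsr1 (-1.24 and -0.37 against -0.20) were below 0 on both endoderm arrays, and adult medians of these 3 were 2.69, 2.59 and 2.55. A fall was called at 1 of the 22, an island 16520 bases from the start of Cdh15, the muscle cadherin (1.74 and 1.52 against 2.82).

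**Figure D5:**
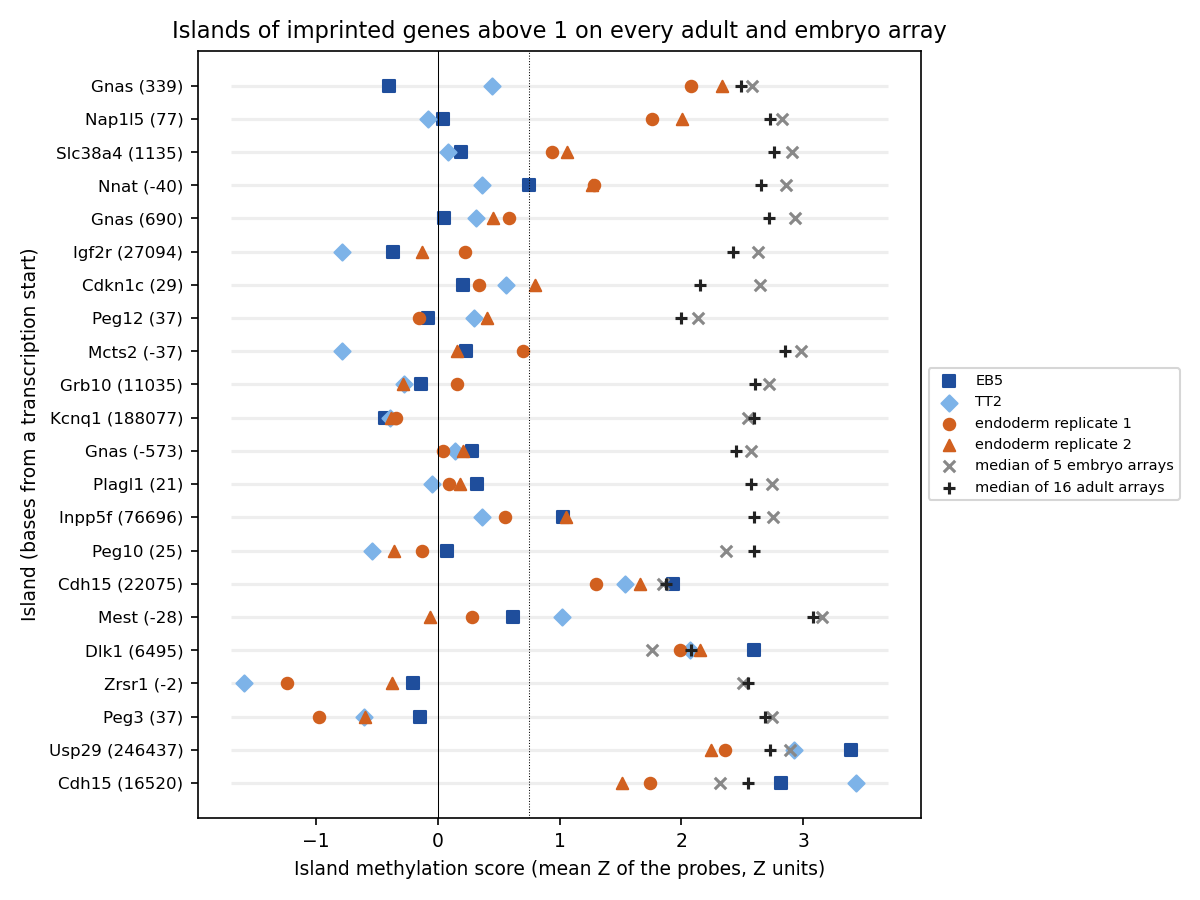
Island methylation score (Z units) of the 22 islands of imprinted genes that are above 1 on every adult and embryo array, 1 point per array for EB5, TT2 and endoderm and the medians of 5 embryo and 16 adult arrays. Numbers after the names are bases from a transcription start. Gnas (339), Nap1l5 and Slc38a4 are above 0.75 on both endoderm arrays and below it in EB5, while Peg3, Peg10 and Zrsr1 are below 0 in endoderm.

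Whether the changes were particular to endoderm was tested against mesoderm, which by the methods came from the same cells by the same Activin protocol. No label says whether these arrays share a culture. Only 1 of 13616 islands (0.00734%) passed in limma, with 977 at an unadjusted p under 0.05. It was an island inside Dmbx1, a homeobox gene of the brain, with 0.44 and 0.67 in endoderm and -1.05 in mesoderm, a difference of 1.60 (SE 0.24, adjusted p = 0.0457), and EB5 stood at 0.21. The count was 0 without endoderm replicate 1 and 87 without replicate 2. At the higher islands the mesoderm median was 1.02, against 1.23 and 1.29 in endoderm and -0.12 in EB5.

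Changes were also set beside those from TT2, which share no array with the contrast. At the 409 higher islands embryoid bodies were above TT2 in 391, with a median difference of 0.90, and at the 151 lower islands they were below TT2 in 140, with a median of -0.47. Over all islands they were above TT2 at 45.3%, with a median of -0.04. Cells treated with retinoic acid, labelled TT2 but described as J1 in the methods, differed from this. They were above TT2 at 273 of the higher islands, with a median difference of 0.24, but below it at only 48 of the lower ones, with a median of 0.21, and above it at 45.4% of all islands. No island passed a limma test of the difference between the changes to endoderm and to embryoid bodies (0.00% of 13616), and 491 had an unadjusted p under 0.05. The line and the kind of differentiation cannot be told apart in that test. The endoderm arrays were then separated. From replicate 1 alone 393 islands (2.89%) were higher than EB5 and 362 (2.66%) lower in limma. In replicate 2 against TT2, which share no array with that choice, 349 of the 393 (88.8%) were higher with a median of 0.81, and 263 of the 362 (72.7%) were lower with a median of -0.28. Over all islands replicate 2 was above TT2 at 47.0% and below it at 53.0%, with a median of -0.04.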

How the data were processed

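Sheared mouse DNA was precipitated with an antibody against 5-methylcytidine, and bound (Cy5) and input (Cy3) DNA were hybridised to Agilent CpG island arrays, 1 array per sample. Spot intensities were extracted by the authors in Agilent's Feature Extraction, with background subtraction and linear dye normalization. The scanner files they deposited give log10 ratios (bound over input). A processed table of the authors holds scores per probe, by the methods Z-scores taken according to Tm, and served as an alternative. Here the log10 ratios of each array were turned into Z-scores, without the Tm step, after control spots and outlier spots were left out. The 492 probes without coordinates were left out too. Neighbouring probes no more than 500 bases apart were joined into islands, and the 13616 with at least 3 probes (at most 45, median 6) were scored. Positions and gene names are those of the array files, which name no build; 11587 islands carry a current symbol by a RefSeq table.

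One mean per group was fitted over all 34 arrays (20 groups) with lmFit and eBayes of limma 3.58.1 in R 4.3.3. Benjamini-Hochberg adjustment was over all islands. The 5 embryo days formed 1 group, and teratomas, purified beta cells and the Min6 and aTC lines were also in the fit. In this fit the single EB5 array is assumed to vary like the groups with more than 1 array, the embryos among them. No source used here says that the endoderm replicates are separate cultures. The p-values thus measure only the spread between arrays within groups, which may be technical and for embryos also takes in the day. The number of arrays limits the precision. Tables and plots were made in Python 3.11.15 (pandas 2.3.3, numpy 2.4.6, scipy 1.17.1, matplotlib 3.10.9). On simulated data of 13616 islands with 200 changed, this contrast recovered 35.0% of changes of 1 and 92.5% of changes of 2, and 2.78% and 3.65% of calls were unchanged islands. The simulated noise was normal, independent between arrays and of equal spread on all of them. It held no effect of slide, scan day, software version or scale, so these shares are not error rates of the real calls.

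Named islands, 1 per gene, are the 15 with the largest rise and the 10 with the largest fall, up to 3 called per gene list, and Sox17, Gsc, Foxa2, Pou5f1, Nanog, Dnmt3b and Slc32a1. Some islands that this rule picks are not reported here. Any other name was chosen after its values were seen, as were all named islands of the list of zinc finger genes. The comparison, the lists and the tests were chosen with earlier results of these data known. Alternatives were run for the standardisation, background correction, source of values, probe filters, island definition, arrays in the fit, test, technical batch and reference line, and without each endoderm array.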

Additional observations from a re-analysis of the deposited data

Results flagged for a closer look

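The island inside Dmbx1 differed between endoderm and mesoderm, both of which were differentiated from EB5. Its difference of 1.60 (SE 0.24) passed the test of endoderm against mesoderm (limma, adjusted p = 0.0457), with 0.44 and 0.67 on the endoderm arrays and -1.05 on the mesoderm array. It rests on 3 probes and a single mesoderm array, and no other island passed.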

How the results depend on the processing

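The 409 higher and 151 lower islands became 34 and 1 with Z-scores from the median and the median absolute deviation, 11 and 0 with unscaled log2 ratios, 214 and 51 with at least 5 probes, 176 and 89 with 4 broad groups and 214 and 42 with the software version as a block. They became 653 and 315 against the mean of EB5 and TT2, and 827 and 461 against the mean of EB5, J1 and TT2, where the J1 array resembles adult tissue. The deposited table, which scores 5891 islands, gave 239 higher. The methods' t-test on the 3 arrays gave 0 and 0 after adjustment and 410 and 348 at an unadjusted p under 0.05. Settings chosen after seeing the data gave 34 and 70 (normexp on median signals, in place of the planned mean signals, which were not analysed for EB5), 84 and 5 (ranks) and 0 and 0 (slide as a fixed block; 1175 and 799 at an unadjusted p under 0.05). Under normexp the median of all islands was 0.06 against -0.05, 32.7% of calls were higher, and 406 of the 409 and 142 of the 151 kept their direction. With 1 endoderm array left out the counts ran from 213 to 393 higher and from 36 to 362 lower, both lowest without replicate 1. In the gene lists the 36 higher and 13 lower islands became 2 and 0, 1 and 0, 4 and 5, 19 and 6, 0 and 0, and 16 and 1 with median absolute deviations, log2 ratios, normexp, the deposited table, the slide block and ranks. With 1 array left out they ran from 17 to 33 and from 5 to 20. The 57 islands low in all adult arrays with an endoderm mean above 0.75 became 99 above 0.5, 35 above 1, 34 with median absolute deviations and 61 to 76 on 1 array. Islands differing from mesoderm ran from 0 to 87, and those differing in change from embryoid bodies from 0 to 1, with 1 endoderm array left out. Values were counted as reversed only where the main fit or the alternative called the island. These were 0.21 at Fstl1 under normexp and, against TT2, -1.22 at Pcdhga12, -0.80 at the inner island of Slc32a1 and 0.58 at Rps25. Of 761 values of named islands under the alternatives 442 kept their call, 311 kept only direction, 4 became called and 4 reversed. A change of sign at an island called in neither fit was counted among the 442, as at Gsc under normexp (0.33 against -0.40). Of the 52 called islands 49 never reversed. The cause of these changes was not tested. No paired analysis was possible because EB5 has 1 array. Signal over background limits the bound channel most, where 78.0% to 98.1% of probes were well above background on the 3 arrays.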

Other observations

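Genes named as zinc finger proteins (Zfp, Zscan, Zkscan or Zbtb), a group picked after the results were seen, had 289 islands in 232 genes, of which 16 (5.54%) were higher in endoderm than in EB5 and 5 lower, with a median difference of -0.09. Over all islands 3.00% were higher and 1.11% lower. Of these islands 43 were above 0.75 on all adult arrays, and these 43 held 11 of the rises and all 5 falls. Zbtb7a, a transcriptional repressor, had 1.83 and 2.82 in endoderm against 0.33 in EB5, and TT2 stood at 2.56. Zscan2 had 1.51 and 1.73 against -0.17, with an adult median of 3.44. Zfp319 had 1.85 and 2.41 against 0.60, and Zfp689 had 1.92 and 2.08 against 0.45, with adult medians of 3.08 and 3.13. The endoderm arrays were below the adult median at these 3. At 5 of the 16 rises, in Zfp385c, Zfp709, Zfp974, Zscan26 and Zfp213, both endoderm arrays were above every adult array. Zfp709 had 1.36 and 1.41 against an adult median of -0.31, and Zscan26 had 1.80 and 2.13 against 0.03. The gene Zfp423 had calls in both directions, a rise from -0.38 to 0.89 and 1.58 at an island 15519 bases from its start and a fall from 3.93 to 2.31 and 2.57 at one 178400 bases from it.

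Among the 4053 islands below 0 on all adult arrays, 44 were above 0.75 on both endoderm arrays. In EB5 23 of these 44 were below 0, and 34 of the 44 were among the higher islands. With a threshold of 1 there were 23, of which 8 were below 0 in EB5.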
